A study of Mus musculus with 6 samples.

Results

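The proliferin genes are the Prl2c genes of the mouse. They were taken as every symbol of the expression table that begins with Prl2c followed by a digit, which gave 4 genes of 35999 symbols, namely Prl2c1, Prl2c2, Prl2c3 and Prl2c5. They were chosen on the measured TPM of Prl2c2, which was near 0 on day 1 and far higher later, so differences from day 1 are given as a description and carry no test. TPM is transcript abundance per unit of transcript length, scaled to 1 fixed total in each library. RNA was sequenced from primary mouse hepatic stellate cells, the liver pericytes that store vitamin A, on day 1, day 4 and day 7, with 2 libraries on each day. The labels name no strain, age, genotype, treatment or culture condition, no starting point for the count of days, and no separate cultures or animals behind the 2 libraries of each day. P-values therefore reflect the spread between libraries alone, and that spread may be technical. The day 1 libraries are numbered 2 and 3 and those of day 4 and day 7 are numbered 1 and 2.

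Proliferins are secreted glycoproteins of the prolactin and growth hormone family, a family that is expanded in rodents. They are best known as hormones of the placental trophoblast giant cell and as products of growth-stimulated mouse fibroblast lines, from which the name comes. Their sugar chains can carry mannose 6-phosphate, which is bound by the cation-independent mannose 6-phosphate receptor, the product of Igf2r, and mouse proliferin is known to act on endothelial cells. In mouse cell lines the promoter of a proliferin gene holds a composite element bound by AP-1 and the glucocorticoid receptor.

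All 4 genes lie on chromosome 13. In GENCODE release M21, on GRCm38, Prl2c3 is at chr13:12790816-12800079 and Prl2c2 at chr13:12996125-13005383, both on the minus strand, and Prl2c5 is at chr13:13182715-13191923 on the plus strand. Prl2c1 is at chr13:27849342-27857788 on the plus strand, among most of the other prolactin family genes. The annotated transcripts of 5 exons were near-identical. Prl2c2 and Prl2c3 differed at 4 of 842 aligned bases (99.5% identity), and at 3 of the 672 coding bases. The differences are G8A in the noncoding part of exon 1, T71C in the coding part of exon 1, C257A in exon 2 and T376G in exon 4, with the base of Prl2c2 first and positions counted from 1 at the 5′ end of the Prl2c2 transcript. Prl2c5 differed from Prl2c2 at 28 of 834 aligned bases and lacked 6 bases, and Prl2c1 differed from Prl2c2 at 61 of 837.

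The coding bases of exon 1, the last 60 bases of exon 2 and the first 60 bases of exon 4 are shown because they hold the 3 coding differences between Prl2c2 and Prl2c3. Capitals mark bases that differ among the 3 genes, and each sequence reads 5′ to 3′ along the transcript. In exon 1 the 3 sequences differ at 1 base.
Prl2c2, chr13:13005296-13005326, minus strand: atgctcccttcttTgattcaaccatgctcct
Prl2c3, chr13:12799982-12800012, minus strand: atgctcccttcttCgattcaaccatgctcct
Prl2c5, chr13:13182782-13182812, plus strand: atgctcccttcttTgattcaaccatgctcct
At the end of exon 2 the sequences are as follows.
Prl2c2, chr13:13002134-13002193, minus strand: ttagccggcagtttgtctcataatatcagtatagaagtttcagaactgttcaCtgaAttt
Prl2c3, chr13:12796831-12796890, minus strand: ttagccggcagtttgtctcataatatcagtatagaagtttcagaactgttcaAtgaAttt
Prl2c5, chr13:13185906-13185965, plus strand: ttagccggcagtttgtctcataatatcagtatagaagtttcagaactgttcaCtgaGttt
At the start of exon 4 the sequences are as follows.
Prl2c2, chr13:12997408-12997467, minus strand: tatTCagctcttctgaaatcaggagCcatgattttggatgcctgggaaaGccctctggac
Prl2c3, chr13:12792115-12792174, minus strand: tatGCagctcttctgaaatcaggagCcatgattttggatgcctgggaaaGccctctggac
Prl2c5, chr13:13190586-13190645, plus strand: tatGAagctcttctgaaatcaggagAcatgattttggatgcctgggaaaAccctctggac
Away from their 4 differing bases, the aligned parts of Prl2c2 and Prl2c3 have the same sequence. Of the 768 windows of 75 bases along the Prl2c2 transcript, 153 were found in Prl2c2 only, and 80.1% were also found in a transcript of another gene. Of the 783 windows of Prl2c3, 236 were found in Prl2c3 only, and 69.9% were shared. The shared part was 19.6% for Prl2c5 and 15.3% for Prl2c1. The read length of the libraries and the way reads of identical stretches were assigned are not given in any source used here, so the split between Prl2c2 and Prl2c3 is uncertain and their sum is given beside each. The pseudogene Gm7040, which shares windows with all 3 genes of the Prl2c3, Prl2c2 and Prl2c5 locus, was listed at 0 in every library.

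**Figure D1:**
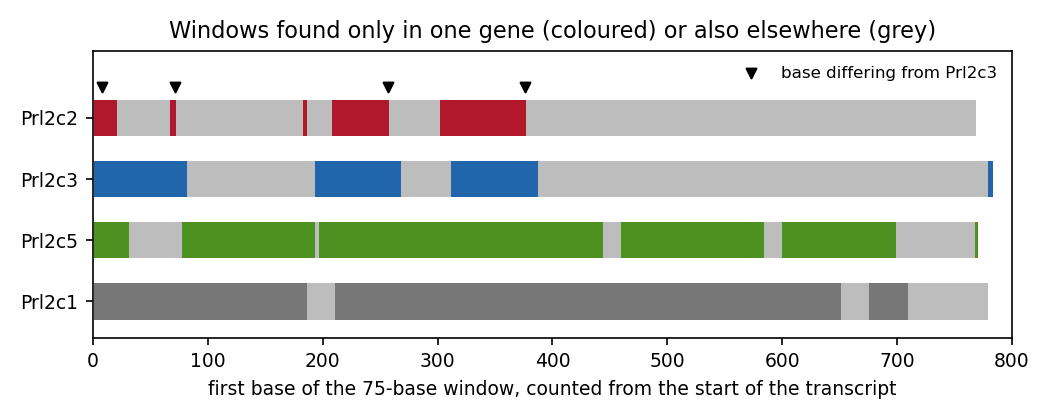
Each bar is 1 gene's annotated transcript, with the position of the first base of a 75-base window on the x axis. Coloured windows occur in that gene only, grey windows also occur in a transcript of another gene, and triangles mark the 4 bases at which Prl2c2 differs from Prl2c3; the Prl2c2 bar is coloured for 153 of 768 windows.

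Prl2c2, formerly called Plf for proliferin, was listed at 0 and 0.145 TPM in the 2 day 1 libraries, at 52.7 and 45.1 TPM on day 4, and at 32.0 and 31.2 TPM on day 7. Every later library was above both day 1 libraries, and both day 4 libraries were above both day 7 libraries. The means were 0.0726 ± 0.10, 48.9 ± 5.4 and 31.6 ± 0.54 TPM (SD, n = 2 each). By TPM it ranked 2907 and 3311 among all symbols on day 4 and 4394 and 4426 on day 7. On the log2(TPM + 1) scale, day 4 minus day 1 was 5.54, at rank 6 from the top among 14373 genes tested, and day 7 minus day 1 was 4.93, at rank 16. A gene was tested where it had at least 1 TPM in at least 2 libraries, and of the 4 proliferin genes only Prl2c2 and Prl2c3 passed that filter, Prl2c2 only through the later days. A gene that passed only through day 1, or only through the later days, is more likely to differ by that choice alone. Where such genes are named below, their differences are read as values. As background for these differences, 25.0% of tested genes were called higher and 11.6% lower on day 4 than on day 1, and 24.7% higher and 16.8% lower on day 7 than on day 1 (limma, Benjamini-Hochberg adjusted p under 0.05).

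Prl2c3, which encodes a proliferin nearly the same as that of Prl2c2, was already listed on day 1. It was at 10.7 and 9.80 TPM on day 1, 12.1 and 11.0 TPM on day 4, and 10.6 and 6.42 TPM on day 7. All 6 libraries thus stayed within a narrow range apart from the lower day 7 replicate 2. The means were 10.2 ± 0.61, 11.6 ± 0.76 and 8.51 ± 2.9 TPM, and day 4 minus day 1 was 0.16 on the log2(TPM + 1) scale. That small difference depended on the scaling. A group of 12 satellite-like predicted gene models took 17.4% and 26.2% of all TPM in the day 1 libraries and 0.0594% to 0.0913% later, which lowers every other gene's TPM on day 1. After rescaling without them Prl2c3 was at 13.2 ± 0.29 TPM on day 1 and 11.7 ± 0.76 TPM on day 4, with both day 1 libraries above both of day 4, while Prl2c2 was at 0.0993 ± 0.14 and 49.3 ± 5.4 TPM.

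Prl2c5, a further proliferin gene of the same locus, was listed at 0.372 and 0 TPM on day 1, 0.593 and 0 TPM on day 4, and 0.0797 and 0 TPM on day 7. It was below 1 TPM everywhere, and the days overlapped. Prl2c1 was listed at 0 in all 6 libraries. TPM keeps no read depth, so the lowest level that could have been seen is unknown.

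If each read of a shared stretch was counted 1 time, the summed TPM of the 4 genes depends little on which gene received it, since their transcripts are of similar length. If such reads were dropped, or counted for several genes, the sum also depends on the mix of genes. Which of these was done is not known. The summed TPM was 11.0 and 9.94 on day 1, 65.4 and 56.1 on day 4, and 42.6 and 37.6 on day 7. Every later library again lay above both day 1 libraries. The mean was 5.79 times higher on day 4 than on day 1 and 3.83 times higher on day 7 than on day 1. Prl2c2 made up 0% and 1.46% of the sum on day 1, 80.6% and 80.4% on day 4, and 74.98% and 82.9% on day 7. The deposited sum was thus nearly all Prl2c3 on day 1 and mostly Prl2c2 later. Since the cells were measured in bulk, more cells that hold a transcript and more transcript per cell cannot be told apart.

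**Figure D2:**
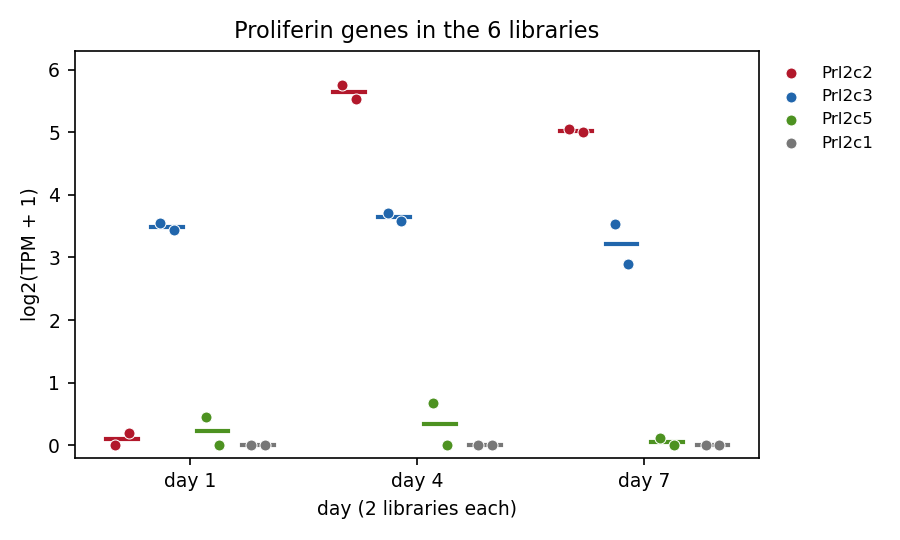
Points are the log2(TPM + 1) values of single libraries (y axis) on each day (x axis), with 2 libraries a day, and horizontal bars are the means of the 2. Prl2c2 moves from 0 to 0.20 on day 1 to 5.01 to 5.75 later, Prl2c3 stays between 2.89 and 3.71, and Prl2c5 and Prl2c1 stay below 1.

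The comparison of day 7 with day 4 was not used to choose the genes and was tested. Prl2c2 was lower on day 7 in both libraries, by a log2(TPM + 1) difference of -0.61 (SE 0.144, 95% interval -0.96 to -0.26), but missed the threshold over all 14373 genes (limma adjusted p = 0.178). It passed in a fit of the 4 libraries of these days alone (adjusted p = 0.0297) and without day 1 replicate 2 or 3 (adjusted p = 0.0454 and 0.0450), with the same difference, and did not pass without any 1 of the day 4 or day 7 libraries (limma adjusted p = 0.575 to 0.849). The sum of the 4 genes differed by -0.58 (SE 0.131, 95% interval -0.90 to -0.27, limma adjusted p = 0.159), and by the same with the 4 libraries alone (adjusted p = 0.0408). Prl2c3 differed by -0.44 (SE 0.224, 95% interval -0.98 to 0.11, limma adjusted p = 0.544), and by -0.76 and -0.11 without day 7 replicate 1 or 2. In the main fit few genes were called at all between these days, 0.306% higher and 0.16% lower on day 7. The median difference of all tested genes was -0.05. In the fit of the 4 libraries alone 729 genes passed, against 67 in the main fit, and more genes also passed without day 1 replicate 2 or 3.

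Promoter sequence was given by RefSeq for Prl2c3 and Prl2c5, on build GRCm38.p6. The 250 bases before the start of each are shown because these neighbours differ in level, Prl2c3 near 10 TPM and Prl2c5 below 1 TPM, while their promoters are near-identical, with 8 of 249 aligned bases differing (96.8% identity). Capitals mark matches to TGANTCA, a loose form of the core sequence bound by AP-1 in which N is any base. They also mark a common form of the TATA box that reads TATATAA, and both were searched on both strands.
Prl2c3, chr13:12800080-12800329, minus strand: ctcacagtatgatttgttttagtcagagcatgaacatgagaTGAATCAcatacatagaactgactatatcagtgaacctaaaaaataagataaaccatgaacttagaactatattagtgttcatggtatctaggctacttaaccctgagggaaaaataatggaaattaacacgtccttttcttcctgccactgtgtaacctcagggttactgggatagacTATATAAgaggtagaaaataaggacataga
Prl2c5, chr13:13182466-13182715, plus strand: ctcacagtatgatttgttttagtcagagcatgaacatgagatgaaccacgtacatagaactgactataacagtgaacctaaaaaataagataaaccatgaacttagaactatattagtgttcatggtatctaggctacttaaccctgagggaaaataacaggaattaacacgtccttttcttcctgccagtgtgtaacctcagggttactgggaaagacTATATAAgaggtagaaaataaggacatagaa
The loose AP-1 pattern was found once in Prl2c3, as TGAATCA, starting 209 bases before the start. It was not found in Prl2c5, where the change T46C falls inside it (the base of Prl2c3 first, positions from 1 at the 5′ end of the Prl2c3 sequence). Of 32851 promoters of this length, 6.75% hold that motif. The TATA box sequence was found in both, 30 and 31 bases before the start, and in 3.04% of all promoters. The matches do not overlap, and a match describes these letters only.

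The other prolactin family genes, hormones of the placenta, uterus or pituitary, were mostly at or near 0. Of 23 listed, 11 were at 0 in all 6 libraries and 21 were below 1 TPM in all 6, among them Prl, the gene for prolactin, with a highest value of 0.081 TPM. Only Prl8a1 and Prl8a9 were tested. Prl8a1 was at 8.48 TPM in both day 1 libraries, 9.01 and 9.53 TPM on day 4, and 9.22 and 7.96 TPM on day 7, with no difference called. Prl8a9 was listed at 0 in both day 1 libraries, at 2.24 and 1.77 TPM on day 4, and at 1.10 and 1.58 TPM on day 7. It met the filter only through the later days, so no test against day 1 is given. Its order of days was also low, then high, at lower levels than those of Prl2c2.

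Trophoblast markers were examined since the trophoblast is the known source of proliferin. Of 20 listed, 4 were at 0 in all libraries (Cdx2, Ctsr, Rhox6 and Rhox9) and 17 were below 1 TPM in all. Among the 17 were Hand1, a trophoblast giant cell regulator with a highest value of 0.0387 TPM, and Tpbpa, a spongiotrophoblast gene with a highest value of 0.171 TPM. The summed level was 8.44 to 10.8 TPM on day 1, 33.0 to 36.5 TPM on day 4 and 23.5 to 27.2 TPM on day 7, and most of it on day 4 came from Peg10, an imprinted gene of retroviral origin. Peg10 was at 3.08 and 7.58 TPM on day 1 and at 29.1 and 27.5 TPM on day 4, a log2 difference of 2.31 (SE 0.34, limma adjusted p = 0.00387). Peg10 was the only 1 of the 20 that met the filter both on day 1 and on the later days. The placental cathepsin gene Ctsj, which met it only through the later days, was at 1.27 and 0.521 TPM on day 1, 3.20 and 2.58 TPM on day 4, and 0.291 and 0.325 TPM on day 7.

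The receptor of proliferin and the enzymes that make its sugar tag were present on every day. Igf2r, the cation-independent mannose 6-phosphate receptor gene, was at 38.4 and 35.2 TPM on day 1, 45.6 and 45.1 TPM on day 4, and 47.7 and 52.8 TPM on day 7. Both later days were above day 1, and the difference missed the threshold on day 4 (log2 difference 0.30, SE 0.11, limma adjusted p = 0.0728) and passed on day 7 (0.44, adjusted p = 0.0202). M6pr, the cation-dependent receptor gene, was at 161 to 246 TPM on day 1 and at 277 to 293 TPM later, with no call on day 4 (adjusted p = 0.0857). Gnptab, Gnptg and Nagpa, which encode the enzymes that build the mannose 6-phosphate tag, were at 11.1 to 40.4 TPM with none called. Of the 10 genes of this list, which also holds other proteins that carry the tag or bind Igf2r, 1 rose and 2 fell on day 4, where 25.0% of all tested genes were higher and 11.6% lower, so these counts do not stand apart. Their median log2 difference was 0.06, against 0.11 over all tested genes, and -0.25 against -0.22 without the satellite-like models. Igf2 met the filter only through the later days, and the other 9 also gave 1 higher and 2 lower, with a median of 0.03. The lysosomal protease gene Ctsd rose by 1.22, and the cathepsin gene Ctsl at -0.75 and the urokinase receptor gene Plaur at -0.45 fell. None of the 10 was called without day 4 replicate 1 or without day 4 replicate 2, and Plaur was not called without either day 7 library. M6pr was called higher without day 1 replicate 2 or 3 (limma adjusted p = 0.000296 and 0.0339) and Igf2r without day 1 replicate 2 (0.0251), so that 3 rose and 3 fell without that library.

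Prlr, the prolactin receptor gene, was at 0.344 to 0.766 TPM in the 6 libraries and was not tested. Ghr, the growth hormone receptor gene, was at 14.7 and 17.4 TPM on day 1, 55.3 and 50.2 TPM on day 4, and 53.3 and 50.1 TPM on day 7. Its day 4 difference was 1.66 (SE 0.12, limma adjusted p = 0.000288), and every later library was above both of day 1. Of the 7 genes of prolactin and growth hormone receptor signalling that met the filter both on day 1 and later, 3 rose and 1 fell on day 4. Their median was 0.05, and 25.0% and 11.6% of all tested genes rose and fell. Besides Ghr, its targets Igf1 (1.24) and Socs2, a feedback inhibitor (0.81), rose, while the kinase gene Jak2 (-0.76) fell. Socs1, a further feedback inhibitor, met the filter only through day 1 and is not counted. It was at 5.29 and 6.44 TPM on day 1 and at 0.617 to 1.39 TPM later. The signal transducer gene Stat5b was at 18.2 to 23.8 TPM and Stat5a at 7.78 to 10.3 TPM, without a call. Ghr, Igf1 and Socs2 were also called higher and Jak2 lower on day 7 than on day 1. None of the 8 tested genes of the list was called between day 7 and day 4.

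Several genes of AP-1, the dimer of Fos and Jun proteins, fell. Of 9 genes of AP-1 and of the corticoid receptors that met the filter both on day 1 and later, 5 fell and 0 rose on day 4, with a median of -0.55, where 11.6% of all tested genes were lower and 25.0% higher. Fosb met the filter only through day 1, at 1.51 and 3.00 TPM there and below 1 TPM later, and is not counted. Fos was at 47.6 and 55.4 TPM on day 1, 23.0 and 24.8 TPM on day 4, and 24.5 and 25.4 TPM on day 7, a day 4 difference of -1.07 (SE 0.12, limma adjusted p = 0.00131). Fosl1, a Fos relative, was at 15.7 and 35.4 TPM on day 1, 2.13 and 1.44 TPM on day 4, and 1.88 and 5.78 TPM on day 7 (day 4 difference -3.16, adjusted p = 0.00527). The day 1 libraries of both genes were above every later library. Fosl2 (-1.33), Jun (-0.90) and Jund (-0.55) were the others that fell, of which Jund was not called without day 4 replicate 1 or 2 (adjusted p = 0.0653 and 0.0778). Nr3c1, the glucocorticoid receptor gene, was at 69.2 to 83.2 TPM in the 6 libraries, and its day 4 difference of 0.16 was not called (adjusted p = 0.238). Without the satellite-like models Junb and Atf3 were called lower as well (adjusted p = 0.0123 and 0.0194).

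Of 9 tested genes that glucocorticoids are known to induce, 1 rose and 2 fell on day 4, which does not stand apart from the 25.0% and 11.6% of all tested genes that rose and fell. The median was 0.18 and was -0.15 without the satellite-like models. The one that rose was the lipocalin gene Lcn2, at 4.23 and 5.38 TPM on day 1, 52.9 and 63.4 TPM on day 4, and 22.7 and 33.3 TPM on day 7, where day 4 was the highest as for Prl2c2. The phosphatase gene Dusp1 (-0.55) and the metallothionein gene Mt2 (-0.53) fell, but neither was called without day 4 replicate 1 or 2, nor was Mt2 without either day 1 library, and 4 genes rose without day 1 replicate 2. Fkbp5, a common glucocorticoid reporter gene, was at 15.9 and 27.2 TPM on day 1 and 20.1 and 27.4 TPM on day 4, with overlapping days. Genes induced by serum or growth factors in fibroblasts, among which proliferin was first found, moved both ways, with 7 of 20 higher and 10 lower on day 4 against 25.0% and 11.6% of all tested genes, or 6 higher and 5 lower without day 4 replicate 2. Of the 20, Il1rl1 met the filter only through day 1, and the other 19 also gave 7 higher and 10 lower. The protease inhibitor gene Timp1 rose (3.46), and the chemokine gene Cxcl1 fell (-3.67).

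Secreted factors that act on vessels, as proliferin does in the placenta, were mostly higher on day 4. Of 18 that met the filter both on day 1 and later, 13 rose and 1 fell on day 4, with a median of 0.86, against 25.0% and 11.6% of all tested genes. Without the satellite-like models 10 of all 19 tested, Thbs2 included, rose and 2 fell. The angiogenesis inhibitor gene Serpinf1 (3.22) and the growth factor gene Fgf2 (2.49) had the largest differences among the called members of the 18. The angiogenesis inhibitor gene Thbs2 (2.77) met the filter only through the later days and is not counted. Fgf2 was at 7.37 and 3.71 TPM on day 1, 35.5 and 33.3 TPM on day 4, and 43.1 and 48.7 TPM on day 7. Both day 4 values of Fgf2 were below both day 4 values of Prl2c2. Unlike Prl2c2, Fgf2 was higher on day 7 than on day 4 in both libraries. This difference of 0.41 was not called (limma adjusted p = 0.667).

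**Figure D3:**
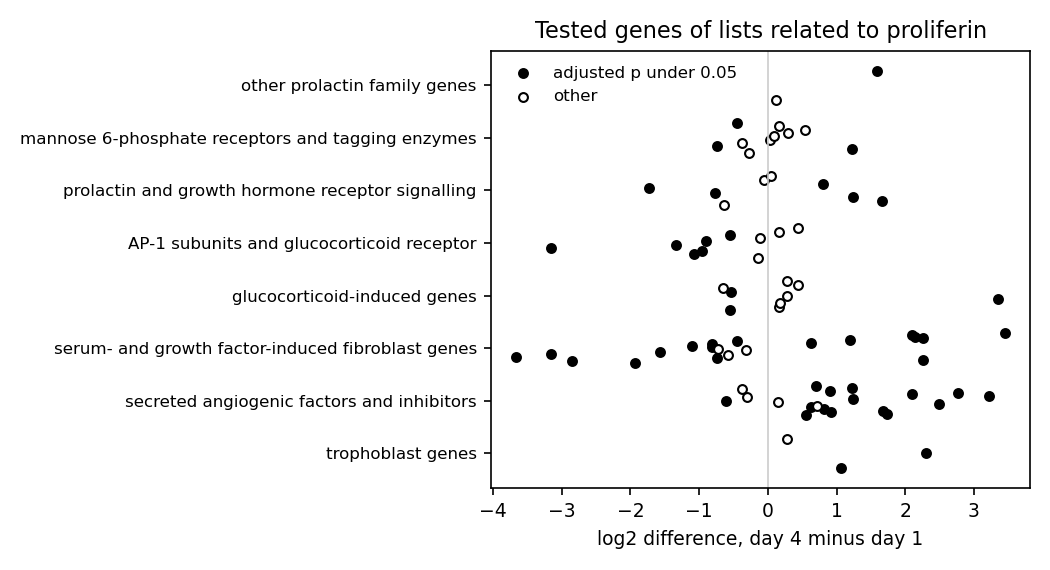
Each point is a tested gene, with its log2(TPM + 1) difference of day 4 minus day 1 on the x axis and its list on the y axis; filled points have a limma adjusted p under 0.05, and Prl8a9, Socs1, Fosb, Ctsj and Thbs2 among them met the filter through 1 side only. All filled AP-1 points lie below 0, 14 of the 15 filled points of secreted angiogenic factors lie above 0, and the receptor lists have filled points on both sides.

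The genes whose profile was nearest to that of Prl2c2 included matrix, contractile and histone genes. Nearness was the Euclidean distance between log2(TPM + 1) values over the 6 libraries, each gene centred on its own mean, among 12861 named genes. Col3a1, a fibrillar collagen gene, was the nearest at a distance of 0.414. It was at 4.24 and 4.43 TPM on day 1, 226 and 237 TPM on day 4, and 129 and 126 TPM on day 7, so both day 4 libraries were above both of day 7, as for Prl2c2. The other 9 lay at 0.926 to 1.26, and were the small proteoglycan gene Ogn, the tropomyosin gene Tpm2, the matrix Gla protein gene Mgp, the histone genes Hist1h3c and Hist1h1b, the retinaldehyde dehydrogenase gene Aldh1a1, the collagen cross-linking enzyme gene Lox, the prostaglandin dehydrogenase gene Hpgd and the protease gene Prss23. Of these 9, Aldh1a1 was below its day 4 values in both day 7 libraries, at 80.5 and 81.1 TPM on day 4 and 63.3 and 57.0 TPM on day 7. The 6 libraries fall into day 1 and the later days, so nearness rests mostly on the size of 1 step. When genes were ranked by correlation in place of distance, only Aldh1a1 was among the first 10 on both rankings. Of all symbols 5 were below 1 TPM in both day 1 libraries and above 20 TPM in all 4 later ones, namely Prl2c2, Ogn, Lox, Afap1l2 and Spon2, and Spon2, a matrix protein gene, reached the highest level of these, 147 to 155 TPM.

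**Figure D4:**
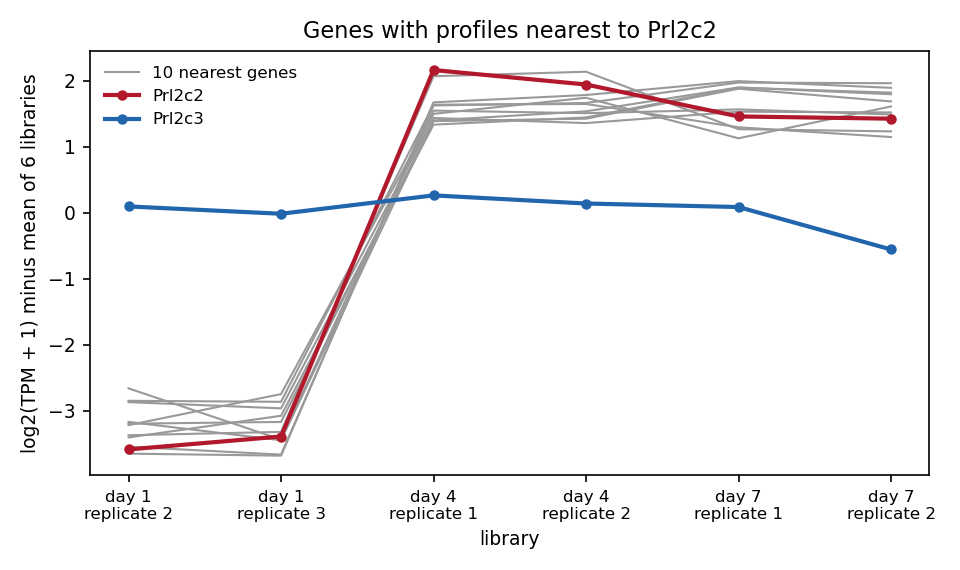
Lines show log2(TPM + 1) minus the gene's mean over the 6 libraries (y axis) in each library (x axis) for Prl2c2, Prl2c3 and the 10 genes nearest to Prl2c2 (grey). Prl2c2 and the grey lines rise between day 1 and day 4, by 5.54 for Prl2c2, while the Prl2c3 line changes by 0.16.

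Genes beside the proliferin locus did not share the size of the Prl2c2 difference. Of 15 other protein-coding genes within 1 Mb of Prl2c2, Prl2c3 or Prl2c5, 13 were tested, and 11 met the filter both on day 1 and later. Of these 11, 3 were called higher and 2 lower on day 4, with a median of 0.002. Those counts are near the 25.0% and 11.6% of all tested genes and are no result about the locus. The largest was Nid1, a basement membrane gene 246 kb from Prl2c5, at 33.2 and 57.1 TPM on day 1 and 100 and 94.3 TPM on day 4 (1.14, SE 0.24, limma adjusted p = 0.0143). Gpr137b lay nearer to Prl2c5, at 166 kb, and was not called (-0.46, limma adjusted p = 0.110). The neighbour nearest to Prl2c3 was Ero1lb, an oxidase gene of the endoplasmic reticulum 179 kb away, which differed by 0.54 (limma adjusted p = 0.0159). The third gene called higher was Ggps1 (0.57). Without the satellite-like models these 3 calls were lost (limma adjusted p = 0.209 for Ero1lb, 0.0749 for Nid1 and 0.179 for Ggps1). Gpr137b (-0.81, adjusted p = 0.0421) and Tbce (-0.53, adjusted p = 0.0125) were then called lower. The counts over all tested neighbours, Actn2 and Gng4 included, became 0 higher and 5 lower. The 3 calls were also lost without day 4 replicate 1 or 2, and Gpr137b was called lower without day 1 replicate 2 (adjusted p = 0.00587). The galectin gene Lgals8 (-0.68) and the nucleolar gene Heatr1 (-0.54) were lower as deposited, but neither was called without day 4 replicate 1 or 2, nor Heatr1 without day 1 replicate 3. Not counted were the actinin gene Actn2, which met the filter only through day 1, and Gng4, which met it only through the later days. Actn2 was at 1.76 and 2.03 TPM on day 1 and at 0.666 to 0.993 TPM later. Around Prl2c1, 23 genes lay within 1 Mb, and Prl8a9 and Prl8a1 were the only ones tested.

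**Figure D5:**
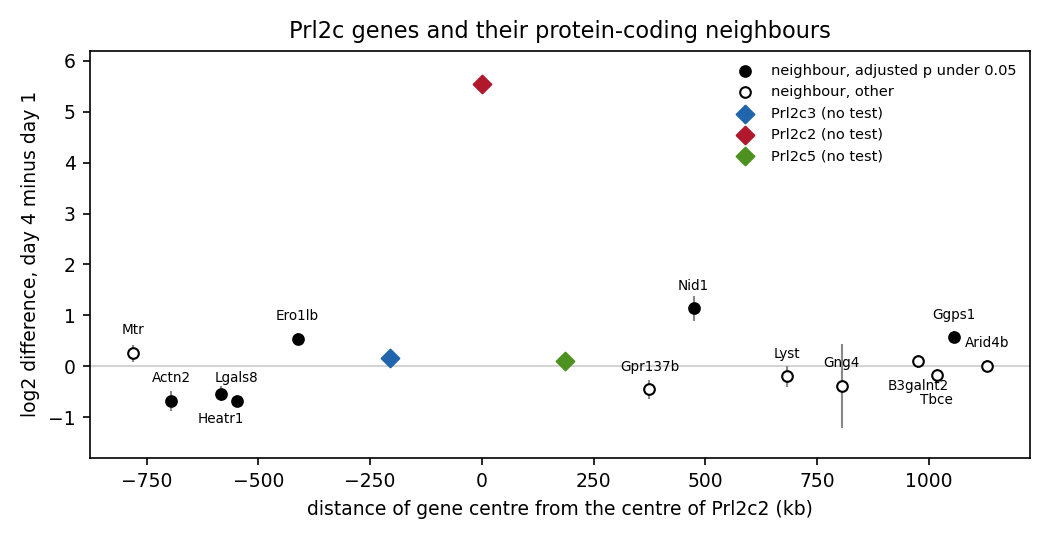
Each point is a gene, with the distance of its centre from that of Prl2c2 in kb (x axis) and its log2(TPM + 1) difference of day 4 minus day 1 (y axis); bars are limma standard errors, and coloured diamonds are proliferin genes, shown without a test. Prl2c2 stands at 5.54, and all 13 tested neighbours lie between -0.68 and 1.14.

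Marker genes of several liver cell types moved between day 1 and day 4 beside Prl2c2, and their part in its difference was not tested. Of all tested genes 25.0% were called higher and 11.6% lower on day 4, which is the background for each count in this paragraph. Counting genes that met the filter both on day 1 and later, 9 of 9 myofibroblast markers (median 3.79) and 16 of 16 cell cycle genes (median 2.55) rose on day 4. Acta2, the smooth muscle actin gene, was at 2.07 and 2.88 TPM on day 1 and 465 and 504 TPM on day 4. Of 10 such quiescent stellate cell markers 6 rose and 0 fell. The summed level of that whole list was 290 to 301 TPM on day 1, 949 to 966 TPM on day 4 and 940 to 965 TPM on day 7. For the myofibroblast list it was 81.5 to 91.1 TPM, 1920 to 1997 TPM and 1933 to 2056 TPM. Lrat, which met the filter only through the later days, encodes the retinol esterifying enzyme and was at 0.491 and 0.496 TPM on day 1 and 6.35 and 5.64 TPM on day 4. Macrophage markers were abundant, with a summed level of 11185 to 14142 TPM on day 1, 27654 to 27709 TPM on day 4 and 26635 to 28947 TPM on day 7, none of the 15 at 0, and 11 higher and 1 lower on day 4, or 6 higher without day 4 replicate 1 or 2. Of 4 such mesothelial markers 2 rose (summed level 22.5 to 26.6 TPM on day 1, 72.7 to 77.8 TPM on day 4 and 93.3 to 125 TPM on day 7). Of 3 such portal fibroblast markers 2 rose and 1 fell (23.5 to 24.9, 63.9 to 66.7 and 125 to 128 TPM), Clec3b was at 0 in all, and the 1 that fell, Thy1, was not called in 5 of the 6 omissions of 1 library. Endothelial markers gave 4 higher and 3 lower of 12 (2212 to 2301, 2014 to 2156 and 2013 to 2112 TPM), or 3 and 1 without day 4 replicate 2, 5 and 5 without day 1 replicate 2 and 6 and 5 without day 1 replicate 3. Of the hepatocyte markers (106 to 128, 315 to 324 and 403 to 456 TPM) 6 met the filter only through day 1, and the other 3 gave 1 higher and 2 lower. The higher one was Trf, at 64.5 and 55.2 TPM on day 1 and 318 and 308 TPM on day 4, which makes up most of that sum, while Alb was at 40.9 and 33.7 TPM and then 1.503 and 2.94 TPM.

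Over all tested genes, 3590 were called higher and 1667 lower on day 4 than on day 1. Without the satellite-like models 2060 were higher and 3468 lower, and the median log2 difference of all genes moved from 0.11 to -0.22. For day 7 against day 1 the counts were 3546 higher and 2410 lower, or 2187 and 4631 without those models. After median-ratio scaling and quantile normalization, 2989 higher and 2043 lower, and 2839 and 2504, were called on day 4. Between 19854 and 21604 symbols were above 0 per library.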

How the data were processed

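RNA of primary mouse hepatic stellate cells was depleted of ribosomal RNA and made into stranded libraries, per the labels' protocols. The values are TPM per gene symbol, made and deposited by the authors. The submitters' processing notes name Trimmomatic, HISAT2 2.0.5 and StringTie 1.3.3b, with mm10 and GRCm38. Annotation, strand use and the handling of reads with several matches are not given in any source used here. Depth is unknown, so no counting error was computed.

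The 14373 genes that reached 1 TPM in 2 or more of the 6 libraries were tested on log2(TPM + 1), a scale that understates changes of low genes, with limma 3.58.1 in R 4.3.3. Day was a factor, variances followed a mean trend with a robust prior, 3 residual degrees of freedom were shared, and p-values were adjusted by Benjamini-Hochberg over all tested genes. The proliferin sum was tested by replacing its rows with 1 row. Satellite-like models were the 12 predicted genes sharing at least 10% of their 20-base words with Gm10800.

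The proliferin genes and the 16 gene lists were chosen with earlier results of these data known. Named genes were all Prl2c symbols, the members of the prolactin family, mannose 6-phosphate, receptor signalling and AP-1 lists, the 3 called members of each other list with the largest day 4 difference, neighbours within 1 Mb and the 10 nearest profiles. Some members of other lists were named after their values were seen: Hand1, Tpbpa, Cdx2, Ctsr, Rhox6, Rhox9, Fkbp5, Lrat and Clec3b, and also Afap1l2, Spon2 and Gm7040. Alternatives were other pseudocounts, filters and scalings, a plain variance prior, a replicate term, fits of 2 days alone, and omission of each library in turn. Replicate numbers were not used to pair the libraries in the main fit, and whether they mark pairs is unknown. No batch is named in the labels. Transcripts came from GENCODE M21 and promoters from RefSeq. Plots used matplotlib 3.10.9 (Python 3.11.15).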

Additional observations from a re-analysis of the deposited data

How the results depend on the processing

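The differences of Prl2c2, Prl2c3 and the proliferin sum between day 7 and day 4 were negative under all alternatives. Leaving out 1 library gave -0.72 to -0.50 for Prl2c2, -0.76 to -0.11 for Prl2c3 and -0.69 to -0.48 for the sum. Prl2c2 passed at -0.61 with only the days compared and without day 1 replicate 2 or 3, and the sum passed at -0.58 with only the days compared. Leaving out 1 library gave 2221 to 7405 calls for day 4 against day 1 (5257 as reported), 2786 to 7752 for day 7 against day 1 (5956), and 0 to 642 for day 7 against day 4 (67, with 1705 genes at an unadjusted p under 0.05). The 0 arose in limma without replicate 2 of day 4 or either day 7 library, which left 1 library on a day, assumed to vary like the others. Day 7 against day 4 also gave 4 calls with no filter, 37 after quantile normalization and 729 with only the days compared. Causes were not tested. Deviations of same-numbered libraries from their day means had correlations of -0.056 to 0.067. With 2 libraries a day the deviations of a day mirror each other, so this cannot tell whether same-numbered libraries share an origin. With the replicate number as a block, day 7 against day 4 gave 31 calls, and Prl2c2 was at -0.61 with a limma adjusted p of 0.116. The proliferin sum was at -0.58 there, with an SE of 0.075 and a limma adjusted p of 0.0783. Of 1360 recomputed day 4 differences of 86 named genes, 73 lost their call, 12 gained one and 0 changed sign past the threshold. With 2 libraries a day and TPM only, sampling noise of low genes such as Prl2c5 cannot be stated.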
